A study of Mus musculus with 8 samples.

Results

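Brown adipose tissue (BAT) carries many sites of open chromatin that lie away from mRNA promoters, and part of these crowd together into chains. The chains described here were chosen by position alone from the deposited list of ATAC-seq summits, the point of highest signal in each peak. A summit was taken as distal when it lay more than 1 kb from every transcription start site (TSS) of a RefSeq mRNA on chromosomes 1 to 19. Neighbouring distal summits at most 12.5 kb apart were joined, and the members are the summits in chains of 6 or more. Starts of other transcripts, such as noncoding RNAs, did not count, so a member can lie at such a start. There were 7024 members in 601 chains, out of 21458 distal summits and 32173 summits in the whole list, and 32.7% of distal summits were members. The spacing of the summits chose the members, so the number and density of summits in a chain are given as a description with no test, and the scores took no part in the choice.

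ATAC-seq cuts accessible DNA with a transposase and so marks regions that nucleosomes do not cover, such as promoters, enhancers and insulators. Nuclei were taken from the BAT of 4 mice, 2 WT and 2 Dot1L-BKO, all on chow, at 12 weeks of age and after 4 h at 4 °C. WT mice were littermates with floxed Dot1l alleles and no Cre. Dot1L-BKO mice carried the same floxed alleles, for the H3K79 methyltransferase Dot1l, with a Cre transgene driven by Ucp1, which deletes Dot1l in brown adipocytes and leaves it in the other cells of the tissue. The deposited list is 1 list for the 4 libraries, named as WT against Dot1L-BKO, and it holds no value per library. Replicate error, read depth and differences between the genotypes could not be obtained from it, and which libraries were the control in peak calling is not known. If the Dot1L-BKO libraries were the control, each score measures WT signal over Dot1L-BKO signal and not the level of open chromatin, so strong and weak refer below to the score only.

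Enhancers bind transcription factors and act on promoters at a distance. Enhancers that lie close together near a gene of cell identity are often grouped by joining neighbours over the same distance as here, after which the groups with the most coactivator or histone signal are called super-enhancers. No such signal was measured in these libraries, so the chains are groups of open sites only. In brown fat, chains of open sites are of interest beside genes that burn fuel for heat, such as Ucp1, the uncoupling protein of the inner mitochondrial membrane, and beside genes that store and release lipid, which feeds that heat production.

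The DNA at the highest scoring member of 5 chains beside genes of fat metabolism is shown first, since each of these positions had the highest score of its chain. Each line gives 50 bases on either side of the summit on the forward strand of GRCm38 (mm10), as held by RefSeq. Capitals mark a match to 1 of 14 short motifs described later, and a line without capitals held none. The Ucp1 summit (chr8:83278682-83278782) lay upstream of the gene, the Cebpb summit (chr2:167777615-167777715) far downstream, and the Ppara summit (chr15:85634669-85634769) far upstream. The Acsl1 (chr8:46482251-46482351) and Mgll (chr6:88732288-88732388) summits were intronic.
Ucp1: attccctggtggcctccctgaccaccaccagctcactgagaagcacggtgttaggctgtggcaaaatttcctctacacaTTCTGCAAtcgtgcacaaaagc
Cebpb: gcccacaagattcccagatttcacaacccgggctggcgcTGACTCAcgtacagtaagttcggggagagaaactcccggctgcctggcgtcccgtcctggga
Ppara: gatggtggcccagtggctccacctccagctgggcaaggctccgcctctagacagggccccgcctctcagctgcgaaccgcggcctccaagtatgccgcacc
Acsl1: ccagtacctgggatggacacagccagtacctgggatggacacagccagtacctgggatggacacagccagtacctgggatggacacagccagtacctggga
Mgll: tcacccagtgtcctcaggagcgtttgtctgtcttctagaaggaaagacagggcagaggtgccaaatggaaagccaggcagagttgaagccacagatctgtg
The Ucp1 window held a C/EBP match and the Cebpb window an AP-1 match. The Acsl1 window was a tandem repeat in which 100% of bases equalled the base 22 positions further on.

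The median chain held 9 summits over 28124 bp, the shortest spanned 5993 bp and the longest 237559 bp. Neighbouring members were a median of 2197 bp apart, with quartiles of 1120 and 4595 bp, against a median of 10996 bp between all neighbouring distal summits. Together the chains spanned 21.3 Mb, or 0.863% of chromosomes 1 to 19. The 60 chains of 20 or more summits held 1969 members, 28.0% of the total. At the limit of the rule, 119 chains had exactly 6 summits and 231 groups that were left out had exactly 5, and 161 chains had a further distal summit within 15 kb of an end.

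**Figure D1:**
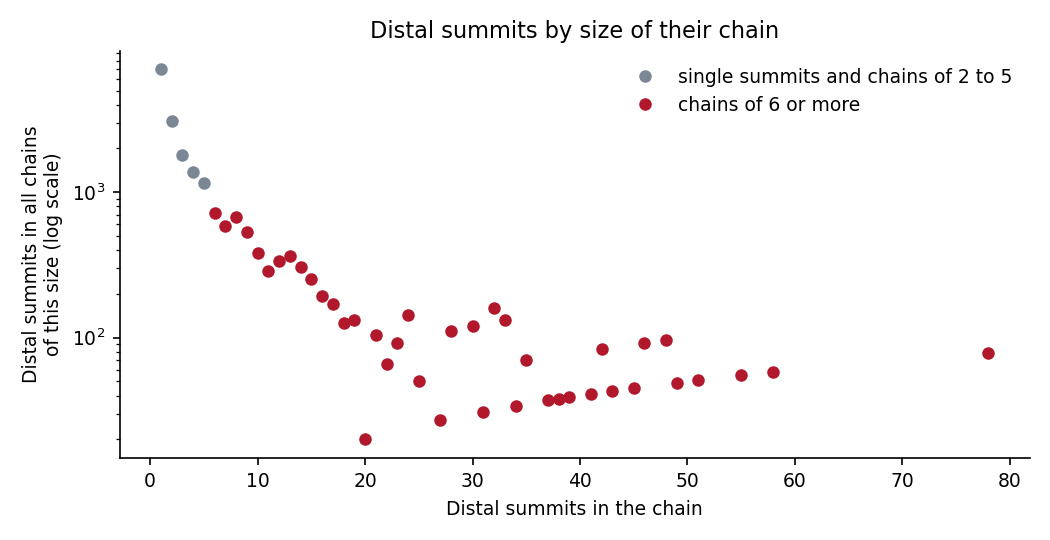
Each point is the number of distal summits (y axis, log scale) found in chains of a given size (x axis, summits per chain). Grey points are the 7005 single summits and the 7429 summits in chains of 2 to 5, and red points are the 7024 members of chains of 6 or more, which reach 78 summits.

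The score, the −log10 of the MACS2 q-value, had the same median of 4.16 in members, in chains of 2 to 5 and in single distal summits. This value is a tie shared by 536 members (7.63%), so the quartiles are more informative. They were 2.80 and 6.53 for members and 2.80 and 7.05 for both of the other distal sets. A score of at least 10 was reached by 944 members (13.4%), by 14.9% of summits in chains of 2 to 5 and by 14.8% of single summits. A score of at least 20 ran in the other order, at 4.85%, 4.52% and 4.07%. Promoter summits, those 1 kb or less from a TSS, reached a median of 8.65 and 42.9% of them reached 10. The extremes lay outside the chains, since 23 single summits and 2 members scored over 100 and the highest scores were 13426 and 146.

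**Figure D2:**
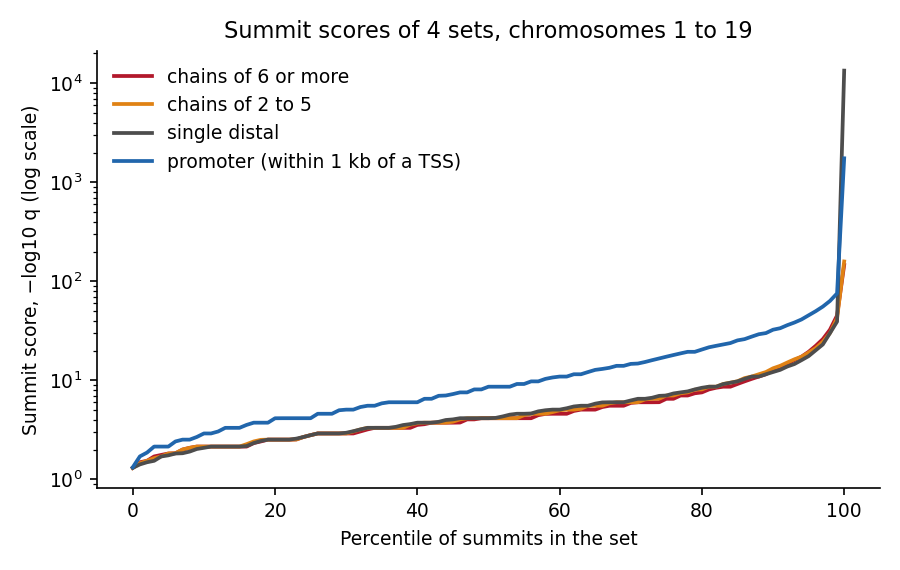
Summit score as −log10 q (y axis, log scale) at each percentile (x axis) of 4 sets of summits. The 3 distal sets lie close together, with medians of 4.16 and 99th percentiles of 45.3, 42.6 and 39.3 for members, chains of 2 to 5 and single summits, and promoter summits lie above them with a median of 8.65.

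Within chains, strong and weak summits were mixed. The intraclass correlation of log2 scores over the 601 chains was 0.0765, so that membership of a given chain accounted for little of the spread in score. The highest score of a chain was a median of 3.38 times the median score of the same chain, and 411 chains (68.4%) held a member of at least 10. Across the 601 chains, the number of summits had a Spearman rho of 0.111 with the median score and of 0.352 with the highest score, the latter taken over more summits in larger chains.

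Members lay closer to genes and more often inside them than other distal summits as a whole, but not than chains of exactly 5. By RefSeq mRNAs, 3712 members (52.8%, 95% Wilson interval 51.7 to 54.0) were intronic, 1027 (14.6%) were exonic and 2285 (32.5%) were intergenic. The intronic share was 49.3% in chains of 2 to 5 and 42.3% in single summits, and the exonic share was 11.1% and 5.32%. Intervals cover counting error only. Median distances to the nearest TSS were 10413 bp (members), 13690 bp (chains of 2 to 5) and 32486 bp (single summits). A median of 6 TSSs lay within 100 kb of a member, against 4 in chains of 2 to 5 and 2 for a single summit. Chains of exactly 5, which were left out, had a median distance of 8862 bp, with 54.6% of summits intronic and 14.4% exonic. In chains of 20 or more the median distance was 16194 bp.

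Chains fell into several kinds by their surroundings. In 299 chains (49.8%) more than 50% of the members lay in the body of a single gene, and in 117 of these chains every member did. In 72 chains every member was intergenic, and 20.7% of the members of these chains scored at least 10. Among these are the chains of repeated units named after Pdia4, Eapp and Galr1, described below, with 19, 6 and 4 such members. By contrast, 57 chains spanned 5 or more TSSs, held a median of 14 summits and had 9.14% of members at 10 or above. A promoter summit lay within the span of 316 chains. In 183 of these 316 chains (57.9%) the best promoter summit outscored every member.

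Chromosomes differed widely in the share of distal summits that were members. It was highest on chromosome 19 (453 of 884, 51.2%) and chromosome 8 (791 of 1577, 50.2%) and lowest on chromosome 13 (75 of 655, 11.5%) and chromosome 14 (76 of 613, 12.4%). Chromosome 19 held 5.05 chains per 10 Mb and chromosome 13 held 0.415. The chromosomes also differed in genes, with 14.1 mRNA TSSs per Mb on chromosome 19 and 7.78 on chromosome 13, but chromosome 8 had 9.39. The part of gene density in these shares was not tested.

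The chain with the most summits held 78 between positions 79955968 and 80193527 of chromosome 10, in a region with 26 TSSs around Sbno2, a coregulator of transcription, and Gpx4, which reduces lipid peroxides. Its median score was 4.16, its top member scored 25.4, and a promoter summit in its span scored 78.9. The third chain held 55 summits over Notch1, a receptor of cell fate decisions, Egfl7, a factor secreted by endothelial cells, and Agpat2, which makes phosphatidic acid on the way to triglyceride. Egfl7 was the nearest gene for 21 of its summits, Notch1 for 14 and Agpat2 for 13. The strongest of the 55 scored 63.7 and lay 5003 bp upstream of Agpat2.

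Among the other chains of the 10 with most summits, several stood beside a single gene or a few genes. Acsl1, which activates long-chain fatty acids, had 51 summits, Nr4a1, an orphan nuclear receptor induced by cAMP, had 49, and Sik1, a kinase induced by cAMP, had 46. All 46 summits of the Sik1 chain had Sik1 as their nearest gene, from -84.9 to 39.6 kb of its start, and the top score of 33.3 lay at -60.8 kb. The Nr4a1 chain ran from -75.1 to 66.0 kb, with 23 summits upstream and a top score of 45.5 at -20.4 kb. Ergic1, which encodes a protein of vesicles between endoplasmic reticulum and Golgi, held 41 of the 46 members of its chain in its own body, and 11 of these 46 scored at least 10. The chain around Ptpa, an activator of protein phosphatase 2A, had 48 summits with a median of 3.68 and a top score of 32.5.

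Dot1l, the gene deleted in Dot1L-BKO mice, stood at the edge of a further chain of this size. This chain held 48 summits and was named after Mob3a by its midpoint, with 7 genes starting in its span. Of its members, 44 lay upstream of Dot1l and 4 in the Dot1l body, at 2732, 3592, 11428 and 19571 bp from the start, with scores of 18.1, 7.58, 2.80 and 8.12. A separate chain of 6 further along the gene put another 2 members in the Dot1l body, with scores of 4.55 and 4.15. The highest member of the chain of 48, with a score of 67.4, lay at -75.5 kb from the start of Dot1l.

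Of the 20021 mRNA genes on chromosomes 1 to 19, 1566 had a TSS within 25 kb of a chain, which is 7.82% and serves as the background for every gene list. Genes with a promoter summit are the more similar background for genes active in this tissue, and 13.1% of those (1224 of 9371) had a chain within this distance. A promoter summit was present at 78.2% of the genes with a chain and at 44.1% of the others. Promoter summits inside the spans of chains had a median score of 7.58 over 861 summits, against 8.65 over 9410 outside. Counted by gene the order was the opposite, with a median promoter score of 12.2 for genes with a chain within 25 kb and 10.4 for the others.

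**Figure D3:**
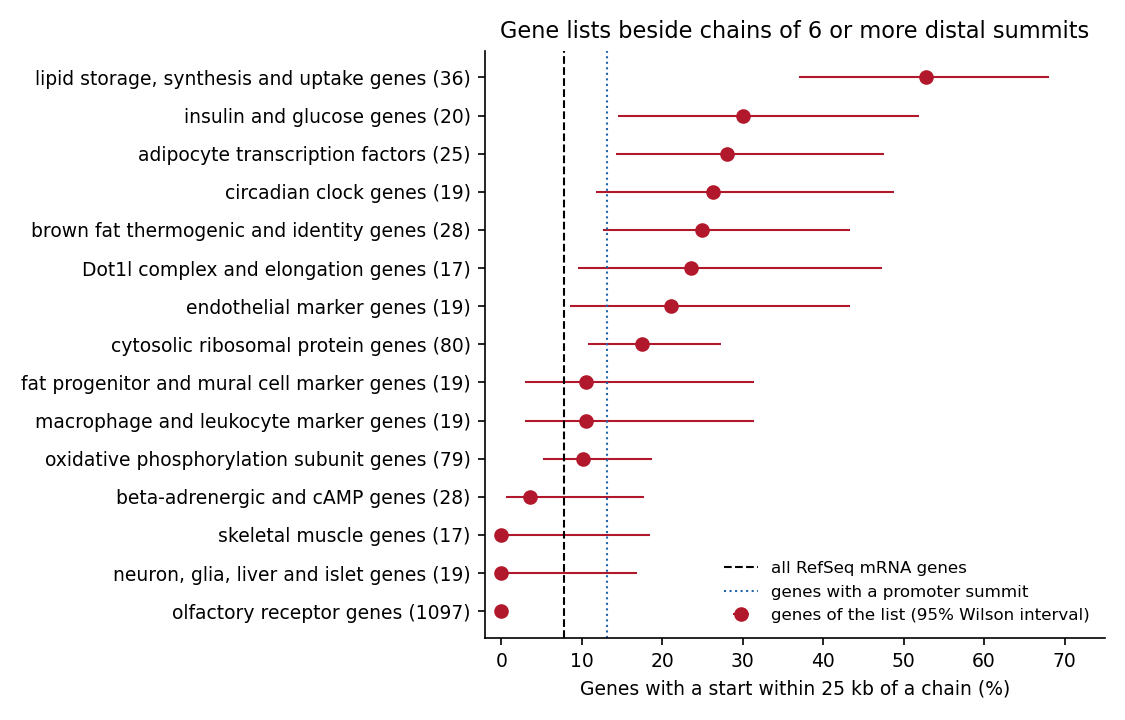
Share of the genes of each list with a start within 25 kb of a chain (x axis, percent), with the number of genes on chromosomes 1 to 19 in brackets and bars for 95% Wilson intervals. The dashed line is the 7.82% of all mRNA genes and the dotted line the 13.1% of genes with a promoter summit, and the lipid list stands highest at 52.8%.

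Lipid genes had chains most often. Of 36 genes of lipid storage, synthesis and uptake, 19 (52.8%, 37.0 to 68.0) had a start within 25 kb of a chain, beside 7.82% of all genes. Among the 31 of them with a promoter summit, 17 (54.8%) did, beside 13.1%. The median gene of this list was 15058 bp long and the median of all genes was 16858 bp. Of genes of uptake, Lpl, the lipase of circulating triglyceride, had a chain, and Cd36, Slc27a1, Vldlr, Gpihbp1 and Angptl4 had none. Of synthesis genes, Fasn, Acacb and Scd1 had one, and Acaca, Acly, Elovl5 and Elovl6 had none. Of esterification genes, Gpam, Agpat2, Lpin1, Dgat1 and Dgat2 had one, and Gpat3 and Gpat4 had none. The droplet coat genes Plin1, Plin2, Plin4 and Plin5 and the lipolysis genes Pnpla2, Lipe and Mgll had one. Plin4 and Plin5 shared the same chain of 15 summits, which counts for both genes. Pnpla2 and Retsat were the nearest gene for 1 summit each of chains of 16 and 19, where 8 and 4 genes start. Cidec, a droplet protein, had none. Acsl1, Fabp4, a carrier of fatty acids, and Retsat made up the rest of the 19, and the carrier Fabp3, Adig and the hormone genes Adipoq, Lep and Retn the rest of the 17 without a chain.

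The lipid chains differed in where they lay. The 51 summits of the Acsl1 chain ran from -1.72 to 125.5 kb of its start, 34 of them in its body, and the 5 of at least 10 included the repeat printed above, with a score of 32.9 at 11.3 kb. Of 39 summits at Mgll, the monoglyceride lipase, 33 lay in its body and the top score of 49.0 at 7.93 kb. All 24 summits of the Lpin1 chain, beside a phosphatidate phosphatase, lay downstream of the start, 22 in its body, and only 1 reached 10. Lpl had a pair of chains. One of 15 summits lay wholly upstream, from -57.1 to -14.3 kb, with its top score of 32.5 at the end nearest to the gene, and one of 11 ran from 2.70 to 35.7 kb, with 5 members in the body of Lpl and a top score of 8.12. Scd1, the stearoyl-CoA desaturase, had 16 summits on both sides, and the top score of 49.1 lay 18.8 kb from the start, past the end of the gene. Fabp4 had 8, with a median of 16.03, the second highest median of the 601 chains, and Plin1 had 11 with a median of 11.5, the ninth highest.

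**Figure D4:**
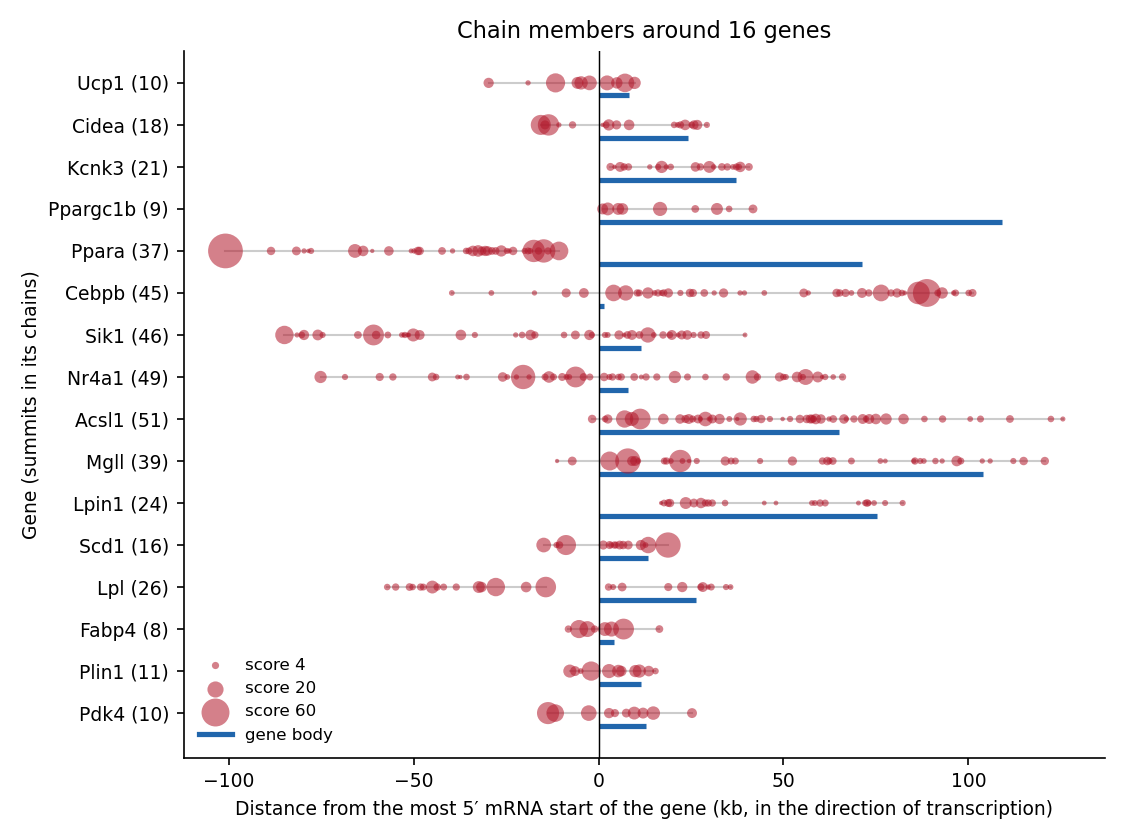
Members of the chains within 25 kb of each of 16 genes, by distance in kb from the most 5′ mRNA start along the direction of transcription (x axis). The area of each red circle is proportional to the score, a grey line spans each chain, blue bars are gene bodies, and numbers are summits in all these chains. Ppara has all members upstream of the start, Lpl has 15 upstream and 11 downstream, and Lpin1, Kcnk3 and Ppargc1b have all downstream of it.

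Of 28 genes of brown fat thermogenesis and identity, 7 (25%, 12.7 to 43.4) had a chain within 25 kb. They were Ucp1, Cidea, a droplet protein typical of brown fat, Kcnk3, a potassium channel, Cpt1b, which brings fatty acyl groups into mitochondria, Fgf21, a hormone, and the coregulator Ppargc1b with its partner Esrra. Fgf21 was the nearest gene for 0 of the 13 summits of its chain and Esrra for 1 of 21. In these chains 3 and 15 genes start. All 7 genes had a promoter summit, and 7 of the 23 genes of the list with a promoter summit is 30.4%, beside 13.1%. Ebf2, which directs brown fat identity, Dio2, the deiodinase that activates thyroid hormone, and Adrb3, the beta-adrenergic receptor of adipocytes, had none. Prdm16, a further regulator of that identity, had none within 25 kb of its start but overlapped a pair of chains of 7 deeper in its body, the nearer one 89144 bp from the start with a median of 9.21.

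The Ucp1 chain held 10 summits in 39461 bp of chromosome 8, from 83260643 to 83300104, and stood out by score more than by size. Its rank was 250 of 601 by number and 8 by median score, with a median of 12.7, and 8 of the 10 reached 10. In order along the gene, the summit at -29.7 kb scored 8.07, that at -19.05 kb scored 2.15 and that at -11.6 kb scored 28.2, the highest. The first and second of these lay in Tbc1d9, the neighbouring gene. Nearer the gene, the scores were 11.01 at -5673 bp, 13.7 at -4707 bp and 16.7 at -2456 bp. Downstream of the start they were 17.2 at 2318 bp, 10.05 at 4943 bp, 26.6 at 7160 bp and 11.6 at 9756 bp, the last past the end of the gene. The promoter summit of Ucp1 scored 33.7 and was higher than every member. The Cre transgene of Dot1L-BKO mice carries Ucp1 regulatory sequence, whose reads map to the same locus, and its part in these scores was not tested.

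Cidea had 18 members from -15.6 to 29.3 kb, 9 of them in its body, with a median of 5.25. The strongest pair lay upstream, scoring 30.9 at -15.6 kb and 35.0 at -13.5 kb, and no other reached 10. All 9 members at Ppargc1b lay in its body, from 1.11 to 41.8 kb, with a median of 10.4 and a top score of 15.5. The 21 members of the Kcnk3 chain had a median of 4.16 and a top score of 11.5. Ppargc1a, the coactivator of mitochondrial biogenesis, had no chain of this size. Of its 8 distal summits within 50 kb, 4 formed a group inside the gene with a top score of 27.4 at 8121 bp, and a pair at -37961 and -41919 bp scored 20.2 and 19.8. Pparg, the nuclear receptor that drives adipocyte differentiation, had a single distal summit within 50 kb, with a score of 19.4.

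Adipocyte transcription factors with a chain numbered 7 of 25 (28.0%, 14.3 to 47.6), beside 7.82% of all genes, and 6 of the 20 with a promoter summit (30.0%). The chain at Cebpb, an early factor of adipogenesis induced by cAMP, held 45 summits, and Cebpb was the nearest gene for 42. It ran from -39.7 to 101.1 kb, although the gene itself is 1518 bp long, and the strongest member, with a score of 59.5, lay 88.8 kb downstream of the start. At Ppara, the nuclear receptor that induces fatty acid oxidation, all 37 summits were intergenic and upstream, from -100.8 to -10.7 kb. The highest score among these, 92.7, the third highest of all chains, belonged to the farthest summit, which lay nearer to Wnt7b, at 52898 bp, as did 5 further members. Klf15 had 7 members with a median of 2.18, among the lowest of all chains, but its first, 1081 bp from the start, scored 37.6. Klf9, Nfix, Srebf1 and Thra had 6, 7, 12 and 13 members, and their medians were 4.86, 3.32, 3.32 and 7.05.

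Of 17 genes of the Dot1l complex and of transcription elongation, 4 had a chain (23.5%, 9.56 to 47.3), beside 7.82% of all genes. Among the 14 with a promoter summit the share was 28.6%, beside 13.1% of all genes with one. The 4 were Dot1l itself, the elongation factor gene Ell, the kinase gene Cdk9 and Men1, which encodes menin. The Ell chain had 42 summits, 12 of them in the Ell body, with 9 genes starting in its span. The largest chains within 25 kb of Cdk9 and Men1 held 32 and 33 summits in regions where 7 and 6 genes start. Beta-adrenergic and cAMP genes, which carry the cold signal, had a chain at 1 of 28, which was Nr4a1 (3.57%, 0.633 to 17.7), an interval that holds the 7.82% of all genes. By overlap of the gene body the count was 3 of 28 (10.7%), beside 5.73% of all genes.

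Lists of other cell types and of widely used genes give the scale for these shares. Endothelial markers had a chain at 4 of 19 (21.1%), which were Egfl7, Eng, Nos3 and Sox18, and macrophage and leukocyte markers and progenitor and mural markers at 2 of 19 each (10.5%). Few of these genes had a promoter summit, and among those the counts were 3 of 11 (27.3%) for endothelial, 1 of 3 (33.3%) for leukocyte and 1 of 4 (25%) for progenitor and mural markers, beside 30.4% of brown fat genes and 13.1% of all genes with one. No skeletal muscle gene of 17 and no neuron, glia, liver or islet gene of 19 had a chain. The leukocyte genes with a chain were Cd68 and Cd79a, and the progenitor and mural genes were Pi16 and Mcam, whereas Cdh5, Pecam1, Adgre1, Ptprc and Pdgfra were without one. Cytosolic ribosomal protein genes had a chain at 14 of 80 (17.5%), oxidative phosphorylation subunits at 8 of 79 (10.1%) and olfactory receptors at 0 of 1097. Fewer cells of a type and less accessible DNA per cell cannot be told apart in bulk tissue. Neither can be told apart from an equal signal in both genotypes if the Dot1L-BKO libraries were the control, so a missing chain says nothing about whether a cell type was present.

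A median score of at least 10 was reached by 17 of 601 chains. They were singled out after their values were seen. Their medians ran from 10.1 to 62.0. Eapp, with the highest, Galr1 and Pdia4 were among the chains of repeated units. Besides Fabp4, Ucp1, Plin1 and Ppargc1b, the rest were the chains named after Mtus1 (median 14.0), Tomm20 (13.3), Nt5m (11.5), Gngt2 (10.7), Mapkapk2 and Adam12 (10.4 each) and Tob2, and those at Noct, a rhythmic regulator of metabolism (9 summits, median 15.4), Pdk4, which inhibits pyruvate dehydrogenase (10 summits, median 10.998), and Usp2, a ubiquitin protease (10 summits, median 10.1). The 10 Pdk4 summits ran from -13.6 to 25.3 kb, with the top score of 37.6 at the upstream end. The chain named after Tob2 held 13 summits with a median of 12.8, all of them downstream of the start of Tef, a clock-controlled transcription factor, from 26.8 to 53.6 kb.

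Part of the chains lay over repeated sequence, and these are set apart here because reads from near-identical copies cannot be assigned to a single copy. In 18 chains with 236 members, at least 50% of the members either matched another member of the chain at 90% identity or more over 150 bases or lay within 250 bp of a tRNA, rRNA or snRNA gene. Only 4 of the 18 had a member at such a gene, and in 14 the masked repeats of the reference made up at least 50% of the bases around members on average. The second largest of all chains, with 58 summits between 123533202 and 123640663 of chromosome 8, was the array of 5S ribosomal RNA genes, transcribed by RNA polymerase III. It held 48 annotated small RNA genes, 35 of the 58 summits lay within 250 bp of one, and 55 matched another summit with a median identity of 98.5%. The 35 summits lay a median of 135 bp from the start of the nearest 5S gene, whose median length was 121 bp, and 14 of them were inside a gene. Scores ran from 1.34 to 14.4.

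The windows around the 3 highest scoring of these 35 summits are printed to show the copies, with the stretch of 30 bases that all 3 share in capitals. They lay at chr8:123606545-123606645, chr8:123555644-123555744 and chr8:123560780-123560880 and are named by the nearest 5S gene.
Gm22109: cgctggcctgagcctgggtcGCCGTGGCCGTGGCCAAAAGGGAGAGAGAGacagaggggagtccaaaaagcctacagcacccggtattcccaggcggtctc
n-R5s110: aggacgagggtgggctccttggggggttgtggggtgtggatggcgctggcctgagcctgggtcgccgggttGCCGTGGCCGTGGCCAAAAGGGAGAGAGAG
n-R5s113: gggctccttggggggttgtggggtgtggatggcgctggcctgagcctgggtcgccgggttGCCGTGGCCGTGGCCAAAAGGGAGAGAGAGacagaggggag
All 3 genes lie on the reverse strand, and the 3 summits lay 16, 67 and 56 bp from the gene, with scores of 14.4, 13.8 and 11.1.

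A pair of chains on chromosome 6 lay over copies of the gene for 4.5S RNA, a short rodent transcript. The chain named after Pdia4 had 33 summits with a median of 10.997 and a top score of 68.5, and 7 copies of the 174-bp gene were found in and beside it. The chain named after Ezh2 had 28 summits with a median of 6.80, and 8 copies were found, spaced a median of 4321 bp apart. Of the members, 23 and 25 matched another member of the same chain, with a median identity of 100%. Most were not at the gene copies themselves, since 6 and 8 lay within 250 bp of a copy.

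The highest median of all, 62.0, belonged to the 6 summits near Eapp on chromosome 12, each within 250 bp of a gene for U1 spliceosomal RNA. In order of position they scored 110.7, 30.2, 66.4, 57.6, 33.3 and 88.4. On chromosome 1, each of 9 summits between 171064219 and 171080666 lay within 250 bp of a tRNA gene for aspartate, glutamate or glycine, with scores from 3.08 to 13.01. In all, 64 members (0.911%) lay within 250 bp of such a gene, 36 at rRNA, 21 at tRNA and 7 at snRNA genes, against 0.478% of other distal summits. Without the 18 chains, 6788 members in 583 chains remained with a median score of 4.16.

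The single strongest member, with a score of 146, lay in an intron of Cars2, a mitochondrial cysteinyl-tRNA synthetase gene, and the other 14 summits of its chain scored from 1.798 to 19.4. The strongest Eapp summit came second. Both windows are printed because they held the highest scores and no match to the motifs, the Cars2 window at chr8:11530878-11530978 and the Eapp window at chr12:54710595-54710695.
Cars2: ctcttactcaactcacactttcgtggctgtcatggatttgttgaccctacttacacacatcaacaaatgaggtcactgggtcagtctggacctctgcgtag
Eapp: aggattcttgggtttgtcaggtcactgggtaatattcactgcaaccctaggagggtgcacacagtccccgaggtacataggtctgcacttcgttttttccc
The chains at Ppara and Hemk1 were also among the 5 with the highest member. At Hemk1, which encodes a methyltransferase of translation release factors, the first of 6 summits scored 79.8 and the second 30.9, with the others at 6.02 or less.

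Members also differed in sequence from the DNA between them. Windows reaching 100 bp to each side of members had a median GC content of 54.7%, against 51.2% at 4680 points midway between neighbouring members, 54.2% at other distal summits and 62.2% at promoter summits. Bases in the repeats masked by the reference made up a mean of 10.6% of member windows and 22.9% of midpoint windows. At single distal summits this mean was 29.9%, in chains of 2 to 5 it was 13.2%, and in chains of exactly 5 it was 10.7%. Near-identical copies of another summit window were found for 249 members (3.54%) and for 1514 single summits (21.6%). No member window matched mitochondrial DNA over 200 bases, whereas 19 single summits and 2 in chains of 2 to 5 did.

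Short motifs of 14 factor families were searched on both strands of these windows. For factors of fat cells they were C/EBP (TTGCNNAA), EBF (CCCNNGGGA), NFI (TGGCNNNNNGCCA), the PPAR repeat DR1 (AGGNCANAGGNCA), ERR (TCAAGGTCA), the glucocorticoid receptor GR (ACANNNTGT) and the cAMP response element CRE (TGACGTCA). The others were AP-1 (TGANTCA), CTCF (CCANNAGNNGGC), MEF2 (CTANNNNTAG), ETS (CCGGAAGT), SP/KLF (GGGGCGGGG), IRF (GAAANNGAAA) and TEAD (ACATTCC). DR1 and ERR matches can overlap. At least 1 match was found in 36.7% of member windows, 28.6% of midpoints, 41.7% of other distal summits and 35.3% of promoter summits, and a match is a description of the letters only.

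**Figure D5:**
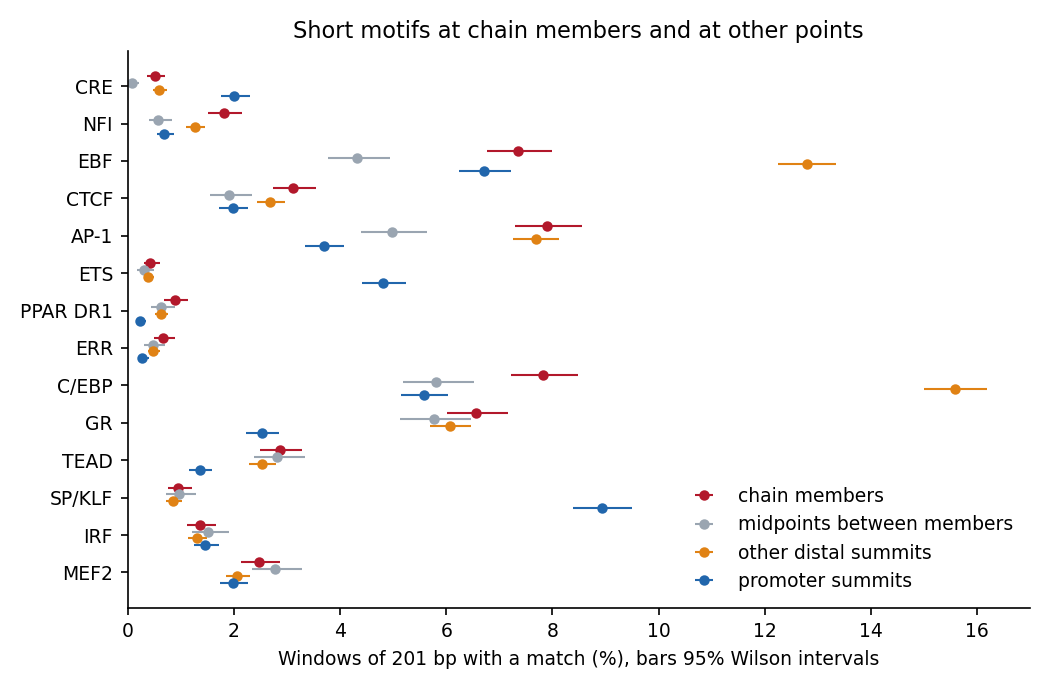
Share of windows of 100 bp to each side with a match to each motif (x axis, percent) at chain members, midpoints between members, other distal summits and promoter summits, with 95% Wilson intervals. C/EBP and EBF matches are most frequent at other distal summits (15.6% and 12.8%), and SP/KLF and ETS matches at promoter summits (8.93% and 4.81%).

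Compared with the midpoints of the same chains, members held more matches to 6 of these motifs with an interval of the difference above 0. EBF, the family that includes the brown fat factor Ebf2, was matched in 7.36% of members and 4.32% of midpoints, a difference of 3.04 percentage points (95% interval 2.20 to 3.89). AP-1, bound by Fos and Jun proteins, was matched in 7.90% and 4.98% (difference 2.92, 2.04 to 3.81), and C/EBP in 7.83% and 5.81% (difference 2.02, 1.10 to 2.94). NFI was matched in 1.81% and 0.577%, which is 3.13 times as often. CTCF, the insulator protein, was matched in 3.12% and 1.90%. CRE was rare, in 36 members (0.513%) and 4 midpoints (0.0855%). The intervals treat windows as separate, and they were not adjusted for the 14 motifs. Windows of neighbouring members can overlap, and 220 members were near-identical to another member of their own chain, so the intervals can be too narrow.

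For the other 8 motifs the interval of the difference held 0. PPAR DR1 was matched in 62 members (0.883%) and in 0.620% of midpoints (difference 0.263, -0.0507 to 0.577), and ERR in 47 members (0.669%) and 0.470%. The ETS and SP/KLF letters, frequent at promoter summits, were found in 0.427% and 0.954% of members, near the 0.299% and 0.962% of midpoints.

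Members and other distal summits differed most in C/EBP and EBF matches, and repeats moved with this difference. C/EBP was matched in 7.83% of members and 15.6% of other distal summits, and EBF in 7.36% and 12.8%. In windows with at least 50% of bases in masked repeats, C/EBP was matched in 34.4% and EBF in 38.6% of 2486 other distal summits, but in 5.84% and 6.90% of 377 members. In the remaining windows EBF was matched nearly equally, in 7.39% of members and 7.42% of other distal summits. C/EBP was still matched less often in members there, in 7.94% against 11.7%. The NFI share was 1.84% in members and 1.51% in other distal summits outside repeats.

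At the named chains the matches can be read beside the shares over all members, 36.7% for any of the 14 motifs, 7.83% for C/EBP and 7.90% for AP-1. At least 1 match was found at 3 of 10 Ucp1 summits and 8 of 18 Cidea summits. Of the Ucp1 summits, that at -11.6 kb and that at 2318 bp held a C/EBP match, the latter with a MEF2 match, and that at -29.7 kb held a CTCF match. Of 18 Cidea summits, 2 held C/EBP and 3 held AP-1, and the pair of strongest summits held none of the 14. C/EBP and AP-1 matches were found at 4 and 6 of 51 Acsl1 summits, at 4 and 5 of 46 Sik1 summits and at 3 each of 45 Cebpb summits.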

How the data were processed

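The ATAC-seq summits, from BAT nuclei of 2 mice per genotype, were used as the authors deposited them, as 1 position per peak with a score that is the −log10 of the MACS2 q-value. By the methods, the authors mapped reads on mm10 (BWA, Partek Flow), and MACS2 2.1.1 called peaks in its ATAC mode where q was at most 0.05 and enrichment at least 2.0-fold. The submitters' processing notes also name CASAVA, bcl2fastq 2.2 and cutadapt 1.2.1. How multi-mapped and mitochondrial reads were treated is not given in the sources used here, and this bears on summits at repeated genes. The deposited positions are on mm10 and were compared with RefSeq for GRCm38. No library has its own values, so read depth is unknown and no test over samples was made. The 95% intervals of shares and of their differences are over summits, genes or windows and were not adjusted for multiple comparisons. The RNA-seq libraries were not analysed here.

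The number of TSSs of curated RefSeq mRNAs was 25999. Distances, chains, annotation and motifs were computed in Python with numpy, pandas and pysam, and the chain and distance steps were tested on simulated positions. A gene took its shortest distance from a TSS to a chain. Windows were compared with each other and with mitochondrial DNA by blastn 2.17.0. Midpoints were taken in gaps of at least 1 kb, more than 1 kb from a TSS and more than 500 bp from a summit. The chains named were the 10 with most summits, the 5 with the highest member, the 20 largest of 39 within 25 kb of a gene of the brown fat, adipocyte transcription factor, lipid and Dot1l lists, and those at Ucp1, Pparg, Ppargc1a and Cidea. A chain that this rule names is not reported here. A chain took the name of the gene holding most of its members, otherwise of the mRNA TSS nearest to its midpoint. The members and the gene lists were chosen with earlier results of these data known, and chains outside this rule were named after their values were seen. Alternatives are given at the end.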

Additional observations from a re-analysis of the deposited data

How the results depend on the processing

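No paired analysis was possible because the deposited list has no values per library, which also means that replicates could not be left out in turn. Counts and shares below follow the main values of 601 chains, 7024 members, a median score of 4.16, 52.8% of members in introns and 7.82% of genes with a chain within 25 kb.

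The score threshold mattered most. With summits scoring at least 5 there were 112 chains and 966 members, with a median of 8.12, 47.7% in introns and 1.22% of genes. At 10 or more there were 11 chains and 90 members, with a median of 18.2, 17.8% in introns and 0.0849% of genes. Of these 90 members, 19, 11 and 6 were in the chains of repeated units named after Pdia4, Ezh2 and Eapp. With gaps of at most 5 kb, 381 chains held 3433 members and 3.56% of genes had a chain. The share of genes was 6.76%, 8.74% and 10.5% at 10, 15 and 20 kb. It was 9.79% for chains of 5 or more summits and 5.84% for 8 or more, of which there were 398. With promoter summits kept there were 915 chains, 10892 members, 48.9% in introns and 13.2% of genes. With distal summits more than 2.5 kb from a TSS 4.86% of genes had a chain. When the starts of all RefSeq transcripts counted, 5819 members in 528 chains were left, and the largest chain held 50 summits. In this setting 6.76% of genes had a chain and 54.3% of members were in introns. Gene distances of 10 and 50 kb gave 5.68% and 10.5%, and overlap of the gene body 5.73%. Without the 18 chains of repeated units, an alternative chosen after seeing the data, 54.4% of members were in introns.

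Differences in motif share between members and midpoints changed sign for ERR (0.199 to -0.0862 points within 200 bp), SP/KLF (-0.00767 to 0.155 within 200 bp and 0.550 at scores of at least 5), IRF (-0.150 to 0.0779 within 50 bp and 0.0696 at scores of at least 5) and TEAD (0.0411 to -0.207 within 50 bp and -0.0627 at scores of at least 5). With members scoring at least 5, the difference rose for C/EBP from 2.02 to 5.56 points, which put it above AP-1 (2.92 to 5.18) and EBF (3.04 to 4.90), and it rose for CTCF (1.22 to 2.18) and CRE (0.427 to 0.859). Within 50 bp it fell for AP-1 to 1.27, EBF to 1.71, NFI from 1.23 to 0.576 and CRE to 0.249, and within 200 bp it was 5.02 for EBF. The cause of these changes was not tested.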

Other observations

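Genes of the circadian clock and of insulin and glucose metabolism also had chains. Of 19 clock genes, 5 (26.3%, 95% Wilson interval 11.8 to 48.8) had a start within 25 kb of a chain, beside 7.82% of all genes, namely Per1, Per2, Nr1d1, Dbp and Tef. The Per1 chain held 16 summits and one of these, at -3.81 kb, scored 70.5. The 7 summits at Per2 lay in its body, with a median of 6.0 and a top score of 28.5 at 22.7 kb. The chain at Nr1d1 was the one at Thra, the neighbouring gene, with its top score of 45.5 at 1.39 kb from the start of Nr1d1. Of 20 insulin and glucose genes, 6 (30.0%) had a chain, namely Akt1, Gys1, Hk2, Pdk4, Pfkfb3 and Slc2a4. Hk2, a hexokinase, and Pfkfb3, which raises glycolytic flux, had 14 summits each, all downstream of the start, with top scores of 23.1 and 25.4. The 9 summits near Slc2a4, the insulin-responsive glucose transporter, scored 5.07 or less, while its promoter summit scored 46.4. Insr, Irs1 and Irs2 had no chain.

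With members limited to scores of at least 10, 11 chains of 6 or more were left. The 3 with the most summits were the pair at 4.5S RNA genes, with 19 and 11, and the Notch1 chain with 8, of which 5 had Egfl7 and 3 had Agpat2 as the nearest gene. Ucp1 also had 8, Ergic1 and Tob2 had 7, and Noct, Eapp, Il17b, Plin1 and Pim3 had 6.

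Outside the chromosomes used above, chromosome X had 4 chains with 59 of its 282 distal summits, near Asmt, Mid1 and Zmat1, and chromosome Y had 1 chain with 20 of 58.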
